A study of Rattus norvegicus with 325 samples.

Results

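The 4 genes described here encode the myosin heavy chains of adult skeletal muscle fibres: Myh7 (slow, type I), Myh2 (fast, type IIa), Myh1 (fast, type IIx) and Myh4 (fast, type IIb). They were chosen by symbol, and each has 1 line among the 17315 distinct symbols of the count files. Besides its own level, each gene's count was expressed as a percentage of the summed counts of the 4 genes in the same library, which is called its share below.

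Myosin heavy chain is the motor of the thick filament, and the isoform that a fibre makes sets how fast its crossbridges cycle. Slow type I fibres resist fatigue and carry posture, type IIa fibres are fast and oxidative, and type IIx and IIb fibres shorten fastest and rely most on glycolysis. The 3 fast genes stand side by side in one cluster that also holds the embryonic and neonatal genes Myh3 and Myh8, whereas Myh7 stands beside the cardiac gene Myh6. The soleus is a postural muscle, the diaphragm drives breathing, and the gastrocnemius and tibialis anterior are limb muscles rich in fast fibres.

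RNA sequencing was performed on the diaphragm, gastrocnemius, soleus and tibialis anterior of male Sprague Dawley rats, an outbred stock, aged 6, 9 or 12 months, or 18, 21, 24 or 27 months. The rats were untreated and carried no transgene, so age and muscle are the factors of the design. The libraries also fall into number series whose meaning is not given. All gastrocnemius libraries form their own series. All 12-month libraries of the other muscles are in another, with a few of 21 months. Series therefore cannot be told apart from muscle for the gastrocnemius, and hardly from age at 12 months in the other muscles. The 83 diaphragm, 73 gastrocnemius, 84 soleus and 85 tibialis anterior libraries fall into 28 groups of muscle and age with 9 to 13 libraries each, and the libraries of a group came from different animals. Tissues of one age were collected on a single day, so that age and collection day cannot be told apart.

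Myh2, Myh1 and Myh4 share a run of promoter sequence and differ in their age changes below. The stretches of sequence just upstream of these 3 neighbours are shown for that reason. They are the 250 bases before the annotated start in the RefSeq table of the GRCr8 assembly, all on the plus strand. Myh2 is at chr10:52355489-52355738, Myh1 at chr10:52384662-52384911 and Myh4 at chr10:52421898-52422147, each read 5′ to 3′. Capitals mark the longest run of bases that is identical in all 3.
Myh2: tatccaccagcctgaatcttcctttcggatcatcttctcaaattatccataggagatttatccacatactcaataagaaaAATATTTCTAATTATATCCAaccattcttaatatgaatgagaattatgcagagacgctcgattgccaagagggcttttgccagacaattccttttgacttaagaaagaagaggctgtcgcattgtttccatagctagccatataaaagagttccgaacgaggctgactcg
Myh1: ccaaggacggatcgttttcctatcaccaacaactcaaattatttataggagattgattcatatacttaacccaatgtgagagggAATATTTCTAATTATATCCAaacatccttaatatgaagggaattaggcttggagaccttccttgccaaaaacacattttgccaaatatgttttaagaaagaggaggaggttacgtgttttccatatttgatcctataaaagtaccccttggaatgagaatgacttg
Myh4: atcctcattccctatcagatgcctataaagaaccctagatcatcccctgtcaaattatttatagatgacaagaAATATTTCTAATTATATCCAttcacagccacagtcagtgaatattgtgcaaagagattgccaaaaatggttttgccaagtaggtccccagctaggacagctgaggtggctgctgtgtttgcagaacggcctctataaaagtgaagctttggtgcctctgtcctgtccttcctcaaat

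The shared run, AATATTTCTAATTATATCCA, begins at position -170 from the start of Myh2, at -166 of Myh1 and at -177 of Myh4. It occurs on either strand in 5 of the 33469 windows of the same length in the table, or 0.0149%, and the other windows that hold it belong to 1 further locus on chromosome 10, LOC102555216. Over the whole window, Myh2 and Myh1 were identical at 73.2% of the 250 bases, Myh2 and Myh4 at 64.4%, and Myh1 and Myh4 at 62%. The Myh7 window, aligned in the same way, was identical to those of Myh2, Myh1 and Myh4 at 57.6, 56.4 and 57.2%. The values of Myh4 with Myh2 and Myh1 were thus not far above those of a gene on another chromosome. The letters TATAAA, present in 12.9% of all windows on either strand, stood at position -30 in Myh2 and at -33 in Myh1, and occurred in Myh4 too. An E box, CANNTG, which occurs in 65.5% of windows, was found at 2 places in the Myh4 window and at 0 in those of Myh2 and Myh1. These matches describe letters in a window and were not tested against any measurement. The Myh7 window, on chromosome 15, does not hold the shared run.

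Library totals were 17555294 to 85316329 counts, and all 4 genes had at least 134 counts in every library. Markers of skeletal muscle were abundant in all muscles: the 6 of 9 listed markers found in the files summed to between 34185 and 109340 CPM (counts scaled to one common library total) in the 6- and 27-month libraries of the 4 muscles. Summed heart muscle markers had medians of 2.83 to 31.2 CPM at 6 months and 12.6 to 65.6 at 27 months, and Myl7, which defines atrial muscle, was at 0 in every soleus, diaphragm and tibialis anterior library of those ages. B-cell markers reached testable levels only in the diaphragm. No 2 libraries of a group agreed within sampling noise (lowest chi-square per gene 8.23 over 1735 pairs). In whole muscle, fewer fibres of a type and less RNA per fibre cannot be told apart, and this holds for every result below.

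Because the 4 coding sequences resemble one another, reads of an abundant gene could be assigned to a rare one. The lowest observed ratios bound that leakage among the 4 genes only. Reads from other heavy chain genes were not bounded in this way. Among these is Myh3, whose soleus median was 315 CPM at 6 months and 2258 CPM at 27 months. In 1 young soleus library Myh4 had 134 counts beside 1666094 of Myh7, a ratio of 0.00804%. Between the fast genes the lowest ratio of Myh4 to Myh1 was 0.714%, in a diaphragm library, and that of Myh4 to Myh2 was 0.277%, in a soleus library. Very low levels of a fast gene beside an abundant neighbour are therefore uncertain at about that size. No transcript lengths were used, so a share is a share of counts, not of molecules, and any order of the 4 genes within a library given below is an order of counts only.

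Myh7, the slow chain, set the 4 muscles apart. At 6 months it measured 42172 to 54697 CPM in the soleus (median 47514, n = 12), 14168 to 20568 in the diaphragm (16944, n = 12), 6045 to 11745 in the gastrocnemius (7537, n = 10) and 1448 to 3386 in the tibialis anterior (2062, n = 12). The 4 ranges did not overlap. Myh7 accounted for a median of 98.3% of the 4-gene counts in the soleus, 28.4% in the diaphragm, 6.58% in the gastrocnemius and 1.51% in the tibialis anterior.

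Myh2, the type IIa chain, was highest in the diaphragm. At 6 months its level there was 11040 to 14234 CPM (median 13215), against 5245 to 8400 in the tibialis anterior (7143), 6106 to 9356 in the gastrocnemius (6736) and 12.5 to 2296 in the soleus (537). Ranges of the 2 fast limb muscles overlapped each other and stayed under the diaphragm. The soleus range spanned more than 2 orders of magnitude and is taken up below.

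Myh1, the type IIx chain, was similar in the 2 fast limb muscles and lower in the diaphragm. It measured 39285 to 53027 CPM in the gastrocnemius (median 46393), 34214 to 48386 in the tibialis anterior (44713), 21142 to 32397 in the diaphragm (27391) and 15.3 to 443 in the soleus (59.4). Only the gastrocnemius and tibialis anterior ranges overlapped.

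Myh4, the type IIb chain, separated the muscles most widely. It stood at 76274 to 98250 CPM in the tibialis anterior (median 87432), 44401 to 67945 in the gastrocnemius (52317), 257 to 7710 in the diaphragm (1181) and 4.40 to 55.1 in the soleus (8.39). None of these ranges overlapped. Its median share of the 4-gene counts was 62.8% in the tibialis anterior, 44.4% in the gastrocnemius, 1.98% in the diaphragm and 0.0169% in the soleus.

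Differences between muscles were tested with limma-voom on the libraries of all muscles, with Benjamini-Hochberg adjustment over the 12784 genes tested. A difference was called when adjusted p was under 0.05 and the change over 1.5-fold. The labels do not say whether the muscles of an age came from the same rats, and the fit takes all libraries as independent. At 6 months all 4 genes were called between the soleus and each other muscle, where 23.9% (diaphragm), 45.4% (gastrocnemius) and 42.9% (tibialis anterior) of all genes were called. The largest was Myh4, with a log2 difference of 12.85 between the tibialis anterior and the soleus (SE 0.41, adjusted p = 8.4e-95). Myh7 was lower there than in the soleus by a log2 difference of -4.50 (SE 0.20, adjusted p = 2.68e-63).

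Among the other pairs at 6 months, Myh7 and Myh4 were called between the diaphragm and the gastrocnemius (log2 differences -1.11 and 5.05; 37.3% of genes called) and between the diaphragm and the tibialis anterior (-3.04 and 5.74; 35.1% called). Between the gastrocnemius and the tibialis anterior only Myh7 was called (-1.93, SE 0.20, adjusted p = 7.82e-18; 17.3% called). In all, 17 of the 24 gene and pair values were called at 6 months and 16 of 24 at 27 months. At 27 months 27.9% (diaphragm), 34.0% (gastrocnemius) and 31.7% (tibialis anterior) of all genes were called against the soleus, 32.3 and 27.4% between the diaphragm and the gastrocnemius and tibialis anterior, and 10.4% between the last 2. The fit shares 1 spread per gene across muscles, and the soleus spread of the fast genes is wide. With only the 2 compared muscles in the fit, an alternative added after seeing the data, 22 of 24 were called at 6 months. Of all genes 23.4, 45.5 and 43.0% were then called for the diaphragm, gastrocnemius and tibialis anterior against the soleus, 38.6 and 36.1% for the fast limb muscles against the diaphragm and 18.8% between these. The values gained were those of Myh2 (-0.86 in the gastrocnemius and -0.93 in the tibialis anterior, each against the diaphragm), Myh1 (0.79 and 0.64) and Myh4 between the fast limb muscles (0.68, adjusted p = 0.00121).

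The order of the muscles by median Myh7 was soleus, diaphragm, gastrocnemius and tibialis anterior at each of the 7 ages. Neighbouring ranges in this order overlapped only for gastrocnemius and tibialis anterior at 24 months and, at 27 months, for that pair and for soleus and diaphragm. By median Myh4 the order was tibialis anterior, gastrocnemius, diaphragm and soleus at every age. From 12 months on the Myh4 ranges of the 2 fast limb muscles overlapped. The diaphragm had the highest median Myh2 at every age, and the soleus the lowest median of all 3 fast genes.

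In the soleus, the fast genes Myh1 and Myh4 were higher at 27 than at 6 months, while Myh7 kept most of the counts. Age comparisons used limma-voom within each muscle with the same thresholds. At 27 months 2 of the 4 genes were called, where 15.0% of all 12175 genes tested were called (9.21% higher, 5.78% lower). Myh7 had the highest count of the 4 in every soleus library at every age.

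Myh1 in the soleus was 15.3 to 443 CPM at 6 months (median 59.4) and 52.1 to 2460 at 27 months (838). The groups overlapped, with the lower values at 27 months inside the young range. The log2 rise was 3.22 (SE 0.63, adjusted p = 1.22e-05), a 9.29-fold change. Its share was above 1% in 0 of 12 libraries at 6 months and in 8 of 12 at 27 months.

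Myh4 in the soleus was 4.40 to 55.1 CPM at 6 months and 20.2 to 314 at 27 months, with medians of 8.39 and 97.7. It rose by 3.08 (SE 0.44, adjusted p = 5.27e-09), or 8.48-fold, and 10 of 12 old libraries had a share above the whole young range. Even so, its median share at 27 months was 0.303% and its highest 1.41%. Whether reads of Myh3, which rose in the soleus too, contributed to the Myh4 counts was not tested.

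Myh7 in the soleus was 42172 to 54697 CPM at 6 months (median 47514), 53054 to 66301 at 18 months (56278), 28126 to 52343 at 24 months (44037) and 17823 to 55317 at 27 months (30539). The log2 difference at 27 months was -0.58 (SE 0.08, adjusted p = 1.2e-08), a 1.495-fold lower level, just under the fold threshold. Its share lay between 95.1 and 99.9% at 6 months, between 99.4 and 99.9% at 18 months and between 82.7 and 99.8% at 27 months. The mean share was lower by 4.09 percentage points at 27 months than at 6 months (93.8 ± 5.45 against 97.8 ± 1.99%, SD, n = 12 each, SE of the difference 1.68), and 5 of 12 old libraries lay below the young range.

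Myh2 in the soleus did not follow the other fast genes. Its median was 537 CPM at 6 months, 94.1 at 9, 56.3 at 12, 55.9 at 18, 135 at 21, 122 at 24 and 572 at 27 months. The change from 6 to 27 months, 1.20 (SE 0.86, adjusted p = 0.237), did not pass, and at 18 months the log2 difference from 6 months was -2.12 (SE 0.87, adjusted p = 0.0621). The edgeR quasi-likelihood test gave -3.79 at 18 months (adjusted p = 0.00081) and -2.57 at 24 months (adjusted p = 0.0143), where limma-voom gave -0.96 (adjusted p = 0.415), and it called both, as did DESeq2 (-3.79 and -2.57). At 27 months edgeR gave -0.13.

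The young soleus libraries fell into separate sets by Myh2: 6 of 12 had Myh2 shares of 2.06 to 4.82%, and the other 6 had 0.0259 to 0.165%. No library lay between. A share over 1% occurred in 6 of 12 libraries at 6 months, 5 at 9, 2 at 12, 0 at 18, 2 at 21, 2 at 24 and 7 at 27 months. The young libraries with high Myh2 were not those with high Myh1: the highest young share of Myh1, 0.882%, was in a library with 0.165% Myh2. At 27 months the library with 9.78% Myh1 also had 6.27% Myh2 and 1.25% Myh4.

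One 27-month soleus library, replicate 9, had 99.8% Myh7 with 0.0848% Myh2, 0.0939% Myh1 and 0.0365% Myh4, shares all within the young ranges. In the same library Chrng, the fetal acetylcholine receptor subunit, measured 9.39 CPM, against 29.7 to 99.8 in the other 11. Without it the Myh7 difference at 27 months was -0.66, past the fold threshold.

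All 3 fast genes of the soleus were called between 24 and 27 months. Over this step Myh1 rose by 2.76 (SE 0.63, adjusted p = 3.13e-04), Myh4 by 2.70 (SE 0.42, adjusted p = 4.04e-07) and Myh2 by 2.16 (SE 0.86, adjusted p = 0.0424), 3 of 4 genes where 4.52% of all genes were called.

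In the diaphragm, where Myh7, Myh2 and Myh1 each had at least 11040 CPM in every young library, Myh4 had the largest log2 difference from 6 to 27 months, while in shares Myh1 and Myh7 differed by more percentage points. At 27 months Myh4 alone was called, where 7.52% of 12035 genes were called (3.27% higher, 4.25% lower). Myh4 was 257 to 7710 CPM at 6 months (median 1181) and 1059 to 9632 at 27 months (5175). It rose by 1.37 (SE 0.48, adjusted p = 0.0144), or 2.59-fold, with wide overlap. Already at 18 and 21 months it was higher than at 6 months, by 1.66 (SE 0.48, adjusted p = 0.00844; 2.25% of genes called) and 1.64 (SE 0.48, adjusted p = 0.0178; 1.68% called). The 24-month difference of 1.30 (adjusted p = 0.0642) did not pass. DESeq2 called the same 3 ages, with 0.92 at 27 months (adjusted p = 0.0323). The edgeR test called none of them, with 1.08 at 18 months (adjusted p = 0.0639), 1.16 at 21 months (adjusted p = 0.0730) and 0.91 at 27 months (adjusted p = 0.0774).

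The spread of diaphragm Myh4 at 6 months was 1.59 (SD of log2 CPM), against 0.11 for Myh2 and 0.15 for Myh7 in the same libraries. The lowest 6-month share was 0.395% and the highest 11.5%. At 27 months the shares lay between 1.77 and 14.1%, with a mean higher by 3.78 percentage points (SE 1.66).

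Smaller differences in the diaphragm passed on adjusted p but not on size. Myh7 was 14168 to 20568 CPM at 6 months and 17363 to 25983 at 27 months, a log2 difference of 0.29 (SE 0.07, adjusted p = 1.75e-04). Myh1 was 21142 to 32397 and 16645 to 30784 CPM, a difference of -0.30 (SE 0.08, adjusted p = 0.0013). As shares, Myh7 went from a median of 28.4 to 35.8% and Myh1 from 45.8 to 35.5%, differences of means of 6.53 (SE 1.58) and -8.50 (SE 1.68) percentage points. Myh1 had the highest count of the 4 in 12 of 12 diaphragm libraries at 6 months and in 6 of 12 at 27 months, Myh7 in the other 6.

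Myh2 in the diaphragm was slightly lower at the ages in between. Its log2 difference from 6 months was -0.32 at 9 months (SE 0.07, adjusted p = 0.00741), -0.27 at 12, -0.23 at 18, -0.30 at 21 and -0.29 at 24 months, all with adjusted p under the threshold and under 1.5-fold. At 27 months it was -0.14 (SE 0.06, adjusted p = 0.0734). Its level was 11040 to 14234 CPM at 6 months and 10041 to 14788 at 27 months.

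In the gastrocnemius, Myh4 was lower at 24 and 27 months than at 6 months, and at 27 months every library had more Myh1 than Myh4 counts. At 27 months Myh4 alone was called, where 22.8% of 11865 genes were called (15.1% higher, 7.76% lower). Myh4 was 44401 to 67945 CPM at 6 months (median 52317), 12222 to 59901 at 24 months (27132) and 10273 to 32980 at 27 months (26530). The 6- and 27-month ranges did not overlap, and the level fell by a log2 value of 1.27 (SE 0.18, adjusted p = 9.93e-09), a 2.41-fold change. At 24 months it was lower than at 6 months by a log2 difference of -0.85 (SE 0.19, adjusted p = 1.28e-04), where 18.8% of genes were called.

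Myh1 itself was 39285 to 53027 CPM at 6 months and 29273 to 58147 at 27 months, a difference of -0.13 (SE 0.10, adjusted p = 0.268) whose 95% interval ran from -0.33 to 0.07. Its share of the 4-gene counts was 32.8 to 46.0% at 6 months and 48.0 to 59.5% at 27 months, with no overlap. The mean Myh1 share differed by 13.5 percentage points (SE 1.62) and that of Myh4 by -17.6 (SE 2.73). The ratio of Myh4 to Myh1 counts, which does not depend on any scaling of the library, had a median of 1.11 at 6 months, 0.837 at 9, 0.756 at 12, 1.20 at 18, 0.958 at 21, 0.883 at 24 and 0.526 at 27 months. Myh4 counts exceeded those of Myh1 in 8 of 10 libraries at 6 months, 4 of 12 at 9, 2 of 11 at 12, 9 of 11 at 18, 4 of 9 at 21, 3 of 9 at 24 and 0 of 11 at 27 months. The order of the pair therefore went back and forth before 27 months.

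Myh7 and Myh2 in the gastrocnemius spread widely in old animals. Myh7 was 6045 to 11745 CPM at 6 months and 1694 to 10862 at 27 months (log2 difference -0.32, SE 0.18, adjusted p = 0.113). Myh2 was 6106 to 9356 CPM at 6 months and 1581 to 10943 at 27 months (-0.32, SE 0.20, adjusted p = 0.163). At 24 months Myh2, at 2818 to 7567 CPM, was called lower (-0.63, SE 0.21, adjusted p = 0.00732). That call was lost without 1 of 3 of the 24-month libraries (replicates 0, 2 and 3), without the 6-month replicate 2, and with edgeR and DESeq2 (-0.57 each), since the change then came in under 1.5-fold.

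In the tibialis anterior the levels of Myh4 and Myh7 were lower at 27 than at 6 months. At 27 months 2 of the 4 genes were called, where 27.6% of 11754 genes were called (17.2% higher, 10.4% lower). Myh4 was 76274 to 98250 CPM at 6 months (median 87432), 10443 to 84070 at 24 months (63123) and 11953 to 69509 at 27 months (28896), with no overlap between 6 and 27 months. The log2 change was -1.497 (SE 0.18, adjusted p = 8.19e-12), a 2.82-fold fall. Between 24 and 27 months it fell by 0.88 (SE 0.18, adjusted p = 4.32e-05; 6.08% of genes called).

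Myh7 in the tibialis anterior was 1448 to 3386 CPM at 6 months (median 2062), 2655 to 4240 at 18 months (3346), 343 to 5861 at 24 months (1393) and 187 to 4609 at 27 months (857). It fell by 1.07 from 6 to 27 months (SE 0.30, adjusted p = 0.00104), or 2.10-fold. The old range enclosed the young one, and the edgeR and DESeq2 tests gave -0.59 each, with adjusted p of 0.0621 and 0.0501. The spread of log2 CPM was 0.39 (SD) at 6 months and 1.32 at 27 months. As a share Myh7 was not lower: its mean was 1.57% at 6 months and 1.87% at 27 months. That difference was 0.30 percentage points (SE 0.55), with 3 old libraries above and 6 below the young range. At 18 months the level differed from 6 months by 0.66 (SE 0.32, adjusted p = 0.0995). The mean share was then higher by 0.99 percentage points (SE 0.17), with 6 of 12 libraries above the young range.

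Myh2 in the tibialis anterior was lower at 18 and 24 months and not at 27. It was 5245 to 8400 CPM at 6 months (median 7143), 2707 to 7131 at 18 months (4446), 1824 to 9716 at 24 months (4053) and 3073 to 10788 at 27 months (6888). It was lower than at 6 months by a log2 difference of -0.64 at 18 months (SE 0.17, adjusted p = 0.00254; 5.45% of genes called) and of -0.81 at 24 months (SE 0.17, adjusted p = 5.16e-05; 14.5% called). At 21 months the difference was -0.44 (SE 0.17, adjusted p = 0.0478), under 1.5-fold. From 24 to 27 months Myh2 rose by 0.70 (SE 0.17, adjusted p = 6.55e-04), and the 27-month level differed from 6 months by -0.11 (SE 0.18, adjusted p = 0.565). Its mean share was nonetheless higher, 4.99% at 6 months and 8.98% at 27 months. The difference was 3.98 percentage points (SE 1.33), and 8 of 12 old libraries lay above the young range. The 18-month call was lost without replicate 3 or 4 of that age, where the change came in under 1.5-fold.

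Myh1 in the tibialis anterior was 34214 to 48386 CPM at 6 months and 26733 to 50767 at 27 months, a difference of -0.07 (SE 0.11, adjusted p = 0.542) with a 95% interval from -0.28 to 0.13. Its share was 24.0 to 35.9% at 6 months and 40.6 to 64.8% at 27 months, without overlap, a difference of means of 19.5 percentage points (SE 2.53). The Myh4 shares, 56.7 to 69.0% and 23.0 to 55.7%, did not overlap either and differed by -23.7 percentage points (SE 3.27). The median ratio of Myh4 to Myh1 counts was 2.03 at 6 months, 1.55 at 24 months and 0.759 at 27 months, and Myh4 had the higher count of the pair in 12 of 12, 11 of 12 and 4 of 12 libraries. At the 4 ages not named it had the higher count in all but 1 library, at 12 months.

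One 24-month tibialis anterior library, replicate 6, stood apart with 10.6% Myh7, 17.5% Myh2, 53.1% Myh1 and 18.8% Myh4. Its Actn3 level, the fast-fibre alpha-actinin, was 2395 CPM against 6369 to 11343 in the other 11, and its Chrng level was the highest of the group at 54.0 CPM. At 24 months Myh4 and Myh7 were called lower than at 6 months, by -0.62 (SE 0.19, adjusted p = 0.00314) and -0.69 (SE 0.31, adjusted p = 0.0464). Without replicate 6 the Myh4 difference was -0.41 (adjusted p = 0.0179), under 1.5-fold, and it was also under 1.5-fold with edgeR (-0.49) and DESeq2 (-0.50). The Myh7 call at 24 months was lost in 12 of 24 fits that each left out 1 library, and with edgeR (-0.38) and DESeq2 (-0.39). Of the 5 calls at 24 months over the 4 muscles, edgeR and DESeq2 thus kept Myh4 in the gastrocnemius and Myh2 in the tibialis anterior.

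**Figure D1:**
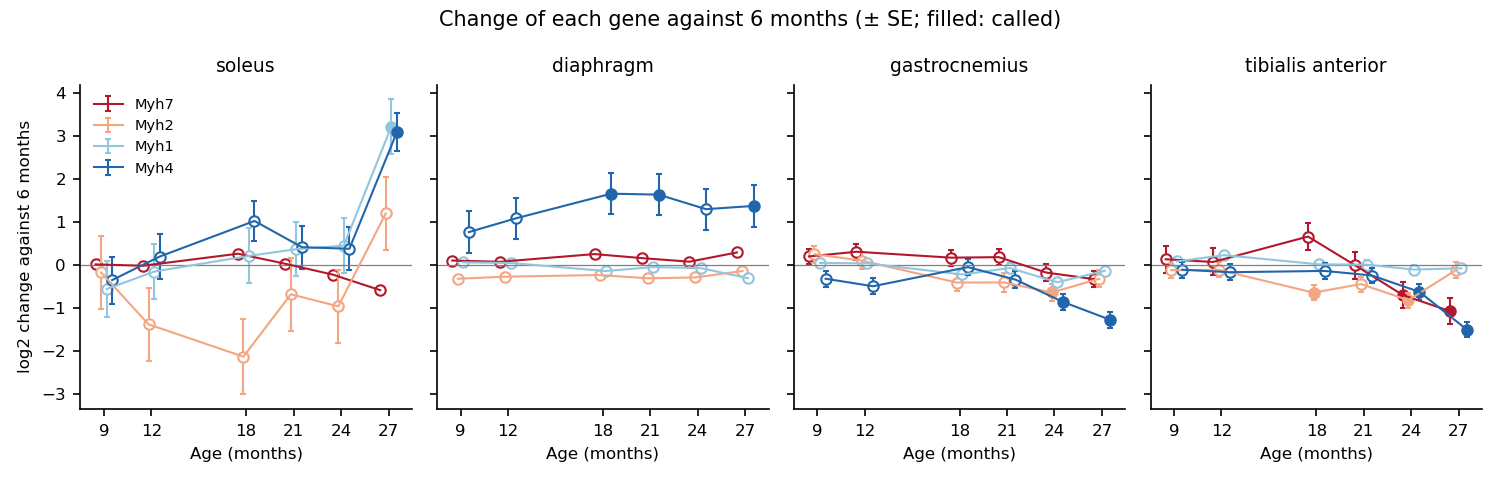
Change of each gene against 6 months (vertical axis, log2, with bars of 1 standard error from limma-voom) at 9 to 27 months (horizontal axis), by muscle (panel); filled points passed adjusted p under 0.05 and 1.5-fold. The filled points of Myh4 lie below 0 in the gastrocnemius and tibialis anterior at 24 and 27 months and above 0 in the soleus at 27 months and in the diaphragm at 18, 21 and 27 months.

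Before 18 months no gene of the 4 passed in any muscle. At 9 and 12 months limma-voom called 0 of 32 values, with 5 at an unadjusted p under 0.05, and edgeR and DESeq2 called 0 as well, while in the soleus 0.123 and 0.353% of all genes were called at these ages, in the diaphragm 0.108 and 0.532%, in the gastrocnemius 0.143 and 0.885% and in the tibialis anterior 0.00851 and 0.196%. At ages not given above the calls over all genes were 2.84, 2.61 and 6.51% at 18, 21 and 24 months in the soleus, 2.68% at 24 months in the diaphragm, 4.32 and 5.81% at 18 and 21 months in the gastrocnemius and 6.47% at 21 months in the tibialis anterior, with 0 of the 4 genes called in these fits. Of the 80 values for steps between neighbouring ages from 9 months on, 5 were called by limma-voom, all of them from 24 to 27 months in the soleus and tibialis anterior. The edgeR test and DESeq2 called 7 each. Over all genes the 4 steps up to 24 months called 0.140, 1.74, 1.51 and 0.534% in the soleus, 0.0997, 0.856, 0.540 and 0% in the diaphragm, 0, 0.742, 0.253 and 6.72% in the gastrocnemius and 0, 3.49, 1.97 and 3.52% in the tibialis anterior, and the last step called 4.39% in the diaphragm and 0.624% in the gastrocnemius.

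Differences between muscles in the age change were tested as interactions in the joint fit, and 11 of 24 values were called. The soleus changes of Myh1 and Myh4 differed from those of each other muscle. For Myh1 the change was smaller than in the soleus by a log2 difference of -3.46 in the diaphragm (SE 0.58, adjusted p = 1.23e-07; 11.9% of genes called), -3.34 in the gastrocnemius (SE 0.61, adjusted p = 1.38e-06; 14.5%) and -3.28 in the tibialis anterior (SE 0.58, adjusted p = 5.16e-07; 15.8%). For Myh4 the corresponding values were -1.66 (SE 0.50, adjusted p = 0.00459), -4.34 (SE 0.56, adjusted p = 1.48e-11) and -4.57 (SE 0.54, adjusted p = 8.78e-14). With only the 2 compared muscles in the fit, all of these were still called. For the diaphragm against the soleus the errors were then larger, where 11% of genes were called. Myh1 differed by -3.50 (SE 0.72, adjusted p = 3.23e-05) and Myh4 by -1.69 (SE 0.66, adjusted p = 0.0351).

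The diaphragm also differed from both fast limb muscles in Myh4. The change was smaller in the gastrocnemius by -2.68 (SE 0.57, adjusted p = 1.73e-05; 21.6% of genes called) and in the tibialis anterior by -2.92 (SE 0.55, adjusted p = 1.49e-06; 20.3% called). The gap in Myh4 between the diaphragm and the gastrocnemius was 5.05 at 6 months and 2.37 at 27 months, and that between the diaphragm and the tibialis anterior 5.74 and 2.82. Gastrocnemius and tibialis anterior did not pass against each other in Myh4 (-0.24, SE 0.61, adjusted p = 0.831).

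Myh7 differed in its age change between the diaphragm and the soleus (0.93, SE 0.31, adjusted p = 0.0105), the tibialis anterior and the diaphragm (-1.41, SE 0.28, adjusted p = 4.34e-06) and the tibialis anterior and the gastrocnemius (-0.74, SE 0.28, adjusted p = 0.0317; 7.32% of genes called). The last was lost with only those 2 muscles in the fit (-0.73, adjusted p = 0.148; 8.37% of genes called) and with edgeR (-0.43, adjusted p = 0.232). The Myh7 value for the gastrocnemius against the diaphragm was not called in the joint fit (-0.67, adjusted p = 0.0527) and was called with only those 2 muscles in the fit (-0.68, adjusted p = 0.00141; 22.8% of genes called). Between soleus and diaphragm the Myh7 gap was -1.46 at 6 months and -0.53 at 27 months, which is under 1.5-fold (adjusted p = 0.0265). Myh2 did not pass in any pair.

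The course over age was described by the Bayesian information criterion (BIC) of flat, straight and sigmoid fits to log2 CPM, which gives no p-value. Late sigmoid falls were assigned to Myh7 in the soleus (midpoint 24.25 months) and tibialis anterior (23.25 months) and to Myh4 in the gastrocnemius (24 months) and tibialis anterior (25.5 months). Late sigmoid rises were assigned in the soleus to Myh1 (25.5 months) and Myh4 (26.75 months). In the diaphragm Myh7 was assigned a straight rise, Myh1 a straight fall and Myh2 an early sigmoid fall. Straight falls of Myh2 and Myh1 were assigned in the gastrocnemius. No trend was assigned to Myh2 in the soleus and tibialis anterior, Myh4 in the diaphragm, Myh7 in the gastrocnemius or Myh1 in the tibialis anterior. Of all genes, 40.2% in the soleus, 29.6% in the diaphragm, 55.1% in the gastrocnemius and 64.9% in the tibialis anterior were assigned a trend.

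The 4 genes together made up a median of 5.33% of the library in the soleus at 6 months, 6.80% in the diaphragm, 9.62% in the gastrocnemius and 11.5% in the tibialis anterior. At 27 months the medians were 4.06, 7.02, 8.16 and 8.57% in the same order. The tibialis anterior ranges of 11.1 to 11.7% at 6 months and 5.88 to 10.7% at 27 months did not overlap, and those of the other muscles did. The soleus peaked at 18 months with 6.21% (range 5.89 to 6.85%), above all of its 6-month libraries (4.92 to 5.63%).

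Other sarcomeric heavy chains were measured beside the 4 adult ones. Of 6 listed genes 4 were in the files, and Myh3, the embryonic chain, rose in all 4 muscles from 6 to 27 months. Its change was 2.45 in the soleus (SE 0.29), 1.60 in the diaphragm (SE 0.23), 4.07 in the gastrocnemius (SE 0.29) and 3.79 in the tibialis anterior (SE 0.37). Median Myh3 went from 315 to 2258 CPM in the soleus and from 42.2 to 938 CPM in the gastrocnemius. Myh8, the neonatal chain, rose in the soleus (2.24, SE 0.41) and tibialis anterior (0.93, SE 0.16), and Myh6, the cardiac alpha chain, fell in the tibialis anterior by 1.47 (SE 0.53). Myh7b, a slow-type relative of Myh7, was not called, with changes from -0.57 to 0.56. Both ends of that range passed on adjusted p and came in just under 1.5-fold. They were those of the soleus (-0.57, SE 0.11, adjusted p = 3.9e-06) and the diaphragm (0.56, SE 0.08, adjusted p = 1.49e-08). These genes took a median of 1.45% of all sarcomeric heavy chain counts in the soleus at 6 months and 6.34% at 27 months, with a maximum of 10.9%. Counted over all sarcomeric heavy chains, the mean soleus share of Myh7 at 27 months was 88.1% in place of 93.8%.

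Genes of the fast fibre programme, a list of 17 contractile, calcium-handling and glycolytic genes, were counted beside the fast myosins. Of all genes 9.21% were called higher and 5.78% lower at 27 months in the soleus, 3.27 and 4.25% in the diaphragm, 15.1 and 7.76% in the gastrocnemius and 17.2 and 10.4% in the tibialis anterior, against which the counts of this and the following lists are to be read. In the soleus 9 rose and 1 fell (median change 1.00, against 0.02 for all genes). Pvalb, the calcium buffer parvalbumin, rose by 6.12 (SE 1.34) and Actn3 by 3.55 (SE 0.55), while Myom2, an M-band protein, fell by 1.10 (SE 0.23). In the gastrocnemius 0 rose and 10 fell (median -0.90, all genes 0.04) and in the tibialis anterior 0 rose and 12 fell (-0.82, all genes 0.02). Mylk2, the skeletal myosin light chain kinase, fell by 1.98 (SE 0.15) and 2.19 (SE 0.21) in these muscles, and Actn3 by 1.39 (SE 0.14) and 1.5045 (SE 0.17). Pfkm, the muscle phosphofructokinase, fell by 1.39 (SE 0.13) in the gastrocnemius. In the diaphragm limma-voom called 0 of the 17, with 4 at an unadjusted p under 0.05 and a median of 0.03.

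The slow fibre programme, also 17 genes, did not move as one. In the soleus 2 rose and 6 fell (median -0.31). Ankrd2, a stretch-responsive ankyrin repeat protein, fell by 1.29 in the soleus (SE 0.23) and by 0.90 in the diaphragm (SE 0.32). In the gastrocnemius 3 rose and 0 fell, in the tibialis anterior 3 rose and 4 fell, and in the diaphragm 1 rose and 1 fell. The 3 of 17 that rose in each fast limb muscle, 17.6%, were near the share of all genes called higher there (15.1 and 17.2%), and 1 of 17, or 5.88%, in the diaphragm was near 3.27 and 4.25%. Sln, encoding the calcium pump regulator sarcolipin, rose in every muscle, by 2.14 in the soleus, 1.08 in the diaphragm, 5.53 in the gastrocnemius and 6.58 in the tibialis anterior. Csrp3, a Z-disc protein, rose in the gastrocnemius (1.75) and tibialis anterior (2.36), and Tpm3, the slow tropomyosin, fell in the tibialis anterior by 1.10 (SE 0.24).

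**Figure D2:**
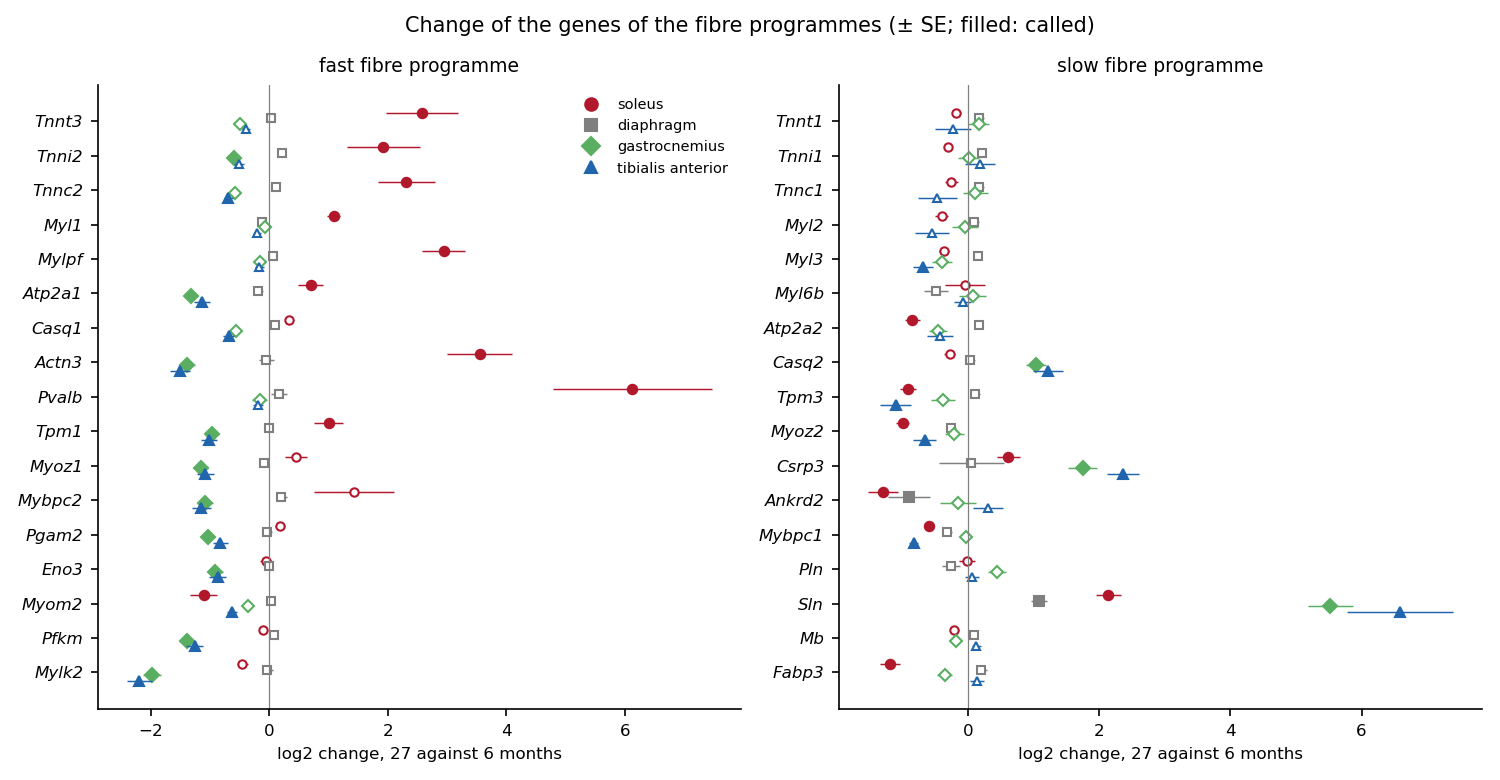
Change from 6 to 27 months (horizontal axis, log2) of the genes of the fast and slow fibre lists (panels), with bars of 1 standard error and a symbol for each muscle; filled points passed adjusted p under 0.05 and 1.5-fold in limma-voom. Fast-list genes lie mostly right of 0 in the soleus (median 1.00), left of 0 in the gastrocnemius (-0.90) and tibialis anterior (-0.82) and around 0 in the diaphragm (0.03).

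Of 25 listed regulators of fibre type, 21 were tested. In the soleus 2 rose and 4 fell, in the gastrocnemius 1 rose and 4 fell, and in the tibialis anterior 2 rose and 7 fell, while limma-voom called 0 in the diaphragm, with 12 at an unadjusted p under 0.05. The shares that rose, 9.52, 4.76 and 9.52%, were near or below those of all genes (9.21, 15.1 and 17.2%), and the shares that fell, 19.0, 19.0 and 33.3%, stood beside 5.78, 7.76 and 10.4% of all genes. Myod1, a myogenic factor linked with fast fibres, rose in the soleus (2.88, SE 0.29), gastrocnemius (1.45, SE 0.18) and tibialis anterior (1.15, SE 0.15). Sox6, a repressor of slow fibre genes, rose in the soleus (1.03, SE 0.09) and fell in the tibialis anterior by 0.61 (SE 0.06). Tead1 fell in the tibialis anterior by 1.08 (SE 0.07). Rcan1, a calcineurin regulator, rose in the tibialis anterior (1.18, SE 0.14) and fell in the soleus by 0.63 (SE 0.21).

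Among 12 listed genes of myosin folding and thick filament assembly, 9 were tested and 1 to 2 rose and 1 to 2 fell in each muscle. One gene is 11.1% of the list, a share close to those of all genes in the limb muscles. Mybph, a myosin-binding protein, rose in all of them, by 2.86 in the soleus, 1.95 in the diaphragm, 1.71 in the gastrocnemius and 3.11 in the tibialis anterior. Mybpc2, the fast myosin-binding protein C, fell in the gastrocnemius by 1.08 and in the tibialis anterior by 1.14. Hsp90aa1, a chaperone of myosin heads, fell in the diaphragm by 0.65 and rose in the gastrocnemius by 0.85. Mybpc1, the slow myosin-binding protein C, fell in the soleus by 0.60 and in the tibialis anterior by 0.83.

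Genes that respond to denervation and markers of other cells were counted over the same ages. Of 11 denervation genes tested, 11 rose in the soleus, gastrocnemius and tibialis anterior and 10 in the diaphragm. Chrng rose by 3.73 in the soleus, 3.68 in the diaphragm, 5.71 in the gastrocnemius and 7.16 in the tibialis anterior. The summed level of the list went from 305 to 367 CPM at 6 months to 519 to 2894 at 27 months in the soleus, from 176 to 247 to 294 to 1017 in the diaphragm, from 168 to 194 to 636 to 2518 in the gastrocnemius and from 118 to 178 to 818 to 4222 in the tibialis anterior. Macrophage markers were called higher for 2 of 10 genes in the soleus, 1 in the diaphragm and 9 each in the gastrocnemius and tibialis anterior, where 9.21, 3.27, 15.1 and 17.2% of all genes were called higher, with summed medians of 102 and 226 CPM at 6 and 27 months in the gastrocnemius and 49.4 and 172 in the tibialis anterior. Adipocyte markers were called higher for 5 of 6 genes in each limb muscle (83.3%, beside the same shares of all genes) and for 0 in the diaphragm. The part of these genes and cells in the myosin changes was not tested.

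Genes whose levels run most like those of the 4 were sought among 8692 genes, as Pearson correlations without p-values. The points share libraries, depth and, over groups, the contrast of soleus with the rest. Over the means of the 28 groups, Myh7 ran closest to Tpm3 (0.995), Myh7b, Lgi1, Tecrl and Myoz2 (0.980). Closest to Myh2 were Specc1 (0.967), Osr1, Sufu, Myh1 and Thnsl1 (0.958). Myh1 was nearest to Mybpc2 (0.993), Actn3, Tnni2, Osr1 and Mdga1 (0.988), and Myh4 to Sox6 (0.994), Gpt2, Tpm1, Tspan8 and Plekhb1 (0.988).

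After the group means were removed, the same measure over all libraries compares animals of one muscle and age. It pools the muscles, so those with a wide spread weigh most, such as the soleus for Myh2 and Myh1. It need not hold within each muscle. Myh7 then ran closest to Tpm3 (0.924), Tnnt1 (0.920) and Tnnc1 (0.917), the slow tropomyosin and troponins. Myh2 ran closest to the fast troponins Tnni2 (0.882), Tnnt3 (0.878) and Tnnc2 (0.870). Myh1 was nearest to Actn3 (0.828), Mybpc2 (0.805) and Pvalb (0.696), and Myh4 to Actn3 (0.652), Atp1b2 (0.538) and Mybpc2 (0.521). Correlations at the other end were weak, with a lowest value of -0.367 for Myh7 (Prkab2), -0.335 for Myh2 (Emc1), -0.307 for Myh1 (Lrrfip1) and -0.371 for Myh4 (Cryab).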

How the data were processed

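Per the labels and the study's methods, total RNA of whole muscles preserved in RNAlater was depleted of ribosomal RNA, made into strand-specific libraries and sequenced as read pairs. The authors quantified reads with the ArrayStudio pipeline on the B6.0 rat genome with an in-house RefSeq-based gene model and deposited raw counts per gene, 1 file per library (17870 lines, 17315 symbols). Versions are not given in the sources used here.

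From these counts, genes were kept by filterByExpr (minimum count 10, total 15), scaled by TMM and fitted with limma-voom (limma 3.58.1, edgeR 4.0.16, R 4.3.3), 1 fit per muscle for ages and 1 fit of all libraries for muscles, with Benjamini-Hochberg adjustment over all genes. CPM values of the 4 genes use the TMM factors of the joint fit, and those of list and marker genes use library totals. A gene was called at adjusted p under 0.05 and over 1.5-fold. Precision of levels comes from the 9 to 13 libraries per group, not from depth. Shares were compared without a test. Trends needed a BIC more than 6 below the flat fit, and more than 2 below the straight one for a sigmoid. The edgeR quasi-likelihood test, DESeq2 (1.42.0), other scalings and filters, quality weights, a replicate block and left-out libraries served as alternatives. The fits were tested on simulated counts.

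The members and lists were chosen with earlier results of these data known, the lists from general knowledge. Named are the 4 genes. From each list, in each muscle, the 2 genes with the largest change among those called are named, and others needed to show a list's range, except that 2 genes are not reported here. For each of the 4 genes the 5 most correlated genes over group means and the 3 most and least correlated over libraries qualify, from genes with mean log2 CPM over 2. The lists of red cell, endothelial, Schwann cell, T-cell and fibroblast markers had 0 to 4 genes called higher and 0 to 4 called lower in each muscle at 27 months, and that of heart muscle 2 higher and 0 to 1 lower. The 4 called higher were T-cell markers in the tibialis anterior, all of those tested there. The 4 called lower were fibroblast markers in the diaphragm. These counts are to be read against the shares of all genes given above. The labels do not name the animal, so same-numbered libraries were not taken as pairs.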

Additional observations from a re-analysis of the deposited data

Results flagged for a closer look

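In the gastrocnemius at 21 months, replicate 7 had a Myh4 share of 49.5%, apart from the next highest, 43.6%, among 9 libraries by Dixon's criterion at the 95% level. It was the only library singled out among the 24 sets of values examined, and chance singles out about 1 set in 20. These sets were those of the gastrocnemius at 6, 21 and 24 months. Groups with more than 10 libraries, which include every group of the other muscles, were not examined in this way.

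The change from 6 to 27 months differed between muscles in 11 interaction tests. Relative to the soleus, Myh7 in the diaphragm differed by 0.93, Myh1 by -3.46 in the diaphragm, -3.34 in the gastrocnemius and -3.28 in the tibialis anterior, and Myh4 by -1.66, -4.34 and -4.57 in the same order. Relative to the diaphragm, Myh4 differed by -2.68 in the gastrocnemius and -2.92 in the tibialis anterior, and Myh7 by -1.41 in the tibialis anterior. Between the fast limb muscles Myh7 differed by -0.74, tibialis anterior minus gastrocnemius.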

How the results depend on the processing

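All values are log2 changes from 6 to 27 months unless stated. The falls of Myh4 in the gastrocnemius and tibialis anterior and the rises of Myh1 and Myh4 in the soleus were called under every alternative run. The diaphragm rise of Myh4 was not called with Bonferroni adjustment (1.37) or edgeR (0.91), nor was the tibialis anterior fall of Myh7 with Bonferroni (-1.07), edgeR (-0.59) or DESeq2 (-0.59). The number of called genes was then 0 in place of 1 in the diaphragm and 1 in place of 2 in the tibialis anterior. Myh7 in the soleus passed the fold threshold with DESeq2 size factors (-0.59), scaling without the 4 genes (-0.59) and no filter (-0.59), and in 8 of 24 fits that each left out 1 library (-0.66 to -0.51), where the number called in the soleus was 2 to 3. The uncalled soleus Myh2 change turned to -0.13 with edgeR and DESeq2. Total-count scaling moved the median of all genes from 0.02 to 0.16 in the soleus, 0.04 to 0.32 in the gastrocnemius and 0.02 to 0.34 in the tibialis anterior. Under it, uncalled changes turned positive yet stayed below that median for Myh1 in the gastrocnemius (0.15) and for Myh2 (0.21) and Myh1 (0.24) in the tibialis anterior. Total-count scaling also left Myh2 and Myh1 in the gastrocnemius and Myh7 in the tibialis anterior without a trend and gave Myh4 in the diaphragm a straight rise. Myh4 in the diaphragm was also given a straight rise without the number series that holds the 12-month libraries outside the gastrocnemius. The straight fit then lay 7.08 below the flat one by BIC, and no other assigned trend changed class. Uncalled interactions of Myh2 turned positive with edgeR for the diaphragm (0.0536) and tibialis anterior (0.0975) against the soleus, with total-count scaling for the gastrocnemius against the diaphragm (0.0686), and for the tibialis anterior against the diaphragm with DESeq2 size factors (0.0126), total-count scaling (0.31) and edgeR (0.0439). The mean share of Myh7 in the soleus at 27 months was 88.1% over all sarcomeric heavy chains. With the replicate number as a block, no call at 27 months against 6 months changed (Myh4 in the soleus 3.01), Myh2 in the soleus at 18 months (-2.18) and Myh4 in the diaphragm at 24 months (1.32) were called, and the uncalled Myh1 difference between tibialis anterior and gastrocnemius at 27 months turned to 0.0322. In the joint fit the block left 17 of 24 muscle differences called at 6 months and 11 of 24 interactions, and at 27 months it called 17 in place of 16, adding Myh2 between the diaphragm and gastrocnemius (-1.20, adjusted p = 0.0342). Deviations of same-numbered libraries from their group means correlated by -0.0667 to 0.390 on average over the 42 sets of 2 muscles at 1 age. Every such correlation was over 0.1 in 3 sets (none at 6 or 27 months). In 166 of 468 same-numbered comparisons, in which a library recurs over sets, the best correlation was with the own number (0 to 10 in a set). This is a hint of pairing from the data, not the design. Over ages the average was at most 0.0538. The cause of these shifts was not tested. Shares per coding length were not run, since no lengths were used here. Low counts limit Myh4 in the soleus, where the smallest count was 134.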
